A study of Mus musculus with 6 samples.

Results

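The comparison set mouse embryonic stem cells with a knockdown of Chd4 directly against stem cells with a knockdown of Mbd3, before any differentiation (day 0). It rests on 2 of the 6 arrays of the study, the 1 labelled sh Chd4 Day 0 and the 1 labelled sh Mbd3 Day 0, and on all 22180 genes that had a probe set with exactly 1 gene symbol. Of these genes, 13314 had an intensity at or above the array median (over all probe sets) in the brighter of the 2 arrays and were compared. Gene expression was read on Mouse Gene 2.0 ST arrays, whose probe sets spread along the whole transcript. A lentivirus had carried into the cells a short hairpin RNA (shRNA) that targeted Chd4, 1 that targeted Mbd3, or a control hairpin, and all 3 populations grew on gelatin in medium with serum and leukemia inhibitory factor (LIF). The day 4 arrays came from the same kinds of infected cells after aggregation in low-adhesion wells in a medium with serum replacement, which starts neural differentiation. The labels give neither the name of the stem cell line nor the number of hairpins, nor whether clones or pools were used.

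CHD4 is the ATPase that slides nucleosomes in the nucleosome remodeling and deacetylase complex (NuRD), and MBD3 is the subunit that joins this remodeler to the histone deacetylase module. Loss of MBD3 disrupts assembly of the complex, whereas CHD4 also works outside NuRD, for example with ADNP and HP1 proteins in the ChAHP complex. In embryonic stem cells NuRD tunes the level of pluripotency genes and is needed for cells to leave self-renewal. A direct comparison of the knockdowns asks where the stem cell transcriptome differs between loss of the remodeler and loss of the scaffold.

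Each group holds 1 array, so a difference between 2 arrays has no replicate check and no p-value. Differences are log2 intensity in the Chd4 knockdown minus log2 intensity in the Mbd3 knockdown, and "higher" and "lower" describe the Chd4-knockdown array relative to the Mbd3-knockdown array. Intensities are on the linear scale. Where the dimmer of 2 intensities lay under 41.4, the highest array median, the fold is given against 41.4 as "at least". The arrays are bulk samples, in which fewer cells of a type and less RNA per cell cannot be told apart.

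The shRNA targets show whether the labels hold. Chd4 read 290 in Chd4-knockdown cells, 896 in Mbd3-knockdown cells and 973 in control cells, so that Chd4 was 3.09-fold lower in its own knockdown than in the Mbd3 knockdown. Mbd3 read 204 in Chd4-knockdown cells, 92.8 in Mbd3-knockdown cells and 216 in control cells, 2.20-fold higher in the Chd4 knockdown. Each target was thus lowest in the array labelled with its own shRNA. At day 4 the separation was smaller, with log2 differences of -0.37 for Chd4 and 0.56 for Mbd3.

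Stem cell markers were at similar levels in both knockdowns. The summed intensity of 10 embryonic stem cell markers was 12660 in the Chd4 knockdown, 12419 in the Mbd3 knockdown and 13028 in control. In each of these arrays 9 of the 10 were at or above 41.4, and Dppa5a, the tenth, read 32.2 in the Chd4 knockdown, 33.9 in the Mbd3 knockdown and 35.3 in control. The sum over 7 neural progenitor markers was 316 in the Chd4 knockdown, 335 in the Mbd3 knockdown and 388 in control. Of these 7, 3 were at or above 41.4 in each knockdown and 5 in control. The sum over mesoderm markers was 236 in the Chd4 knockdown, 242 in the Mbd3 knockdown and 255 in control. Of the 5 measured, 4 were at or above 41.4 in each array. No marker of these 2 lineages read above 73.0 in either knockdown, so both sums rest on dim intensities. No intensity on these arrays was 0, and the lowest was 17.6.

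Over the 13314 genes the knockdowns were close to each other. The median difference was -0.003 with an SD of 0.32 across genes, and 89.5% of genes differed by less than 0.5. At least 2-fold higher were 78 genes (0.586%), Mbd3 itself among them, and 62 were at least 2-fold lower (0.466%), Chd4 itself among them, together 1.05%. With 16 subtracted from every intensity, 293 genes passed 2-fold without the targets, 156 of them higher and 137 lower. At 1.5-fold the counts were 436 (3.27%) and 512 (3.85%). The plot of the intensities of these arrays shows the genes past 2-fold at low and middle intensities, the brightest of them Klf2.

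**Figure D1:**
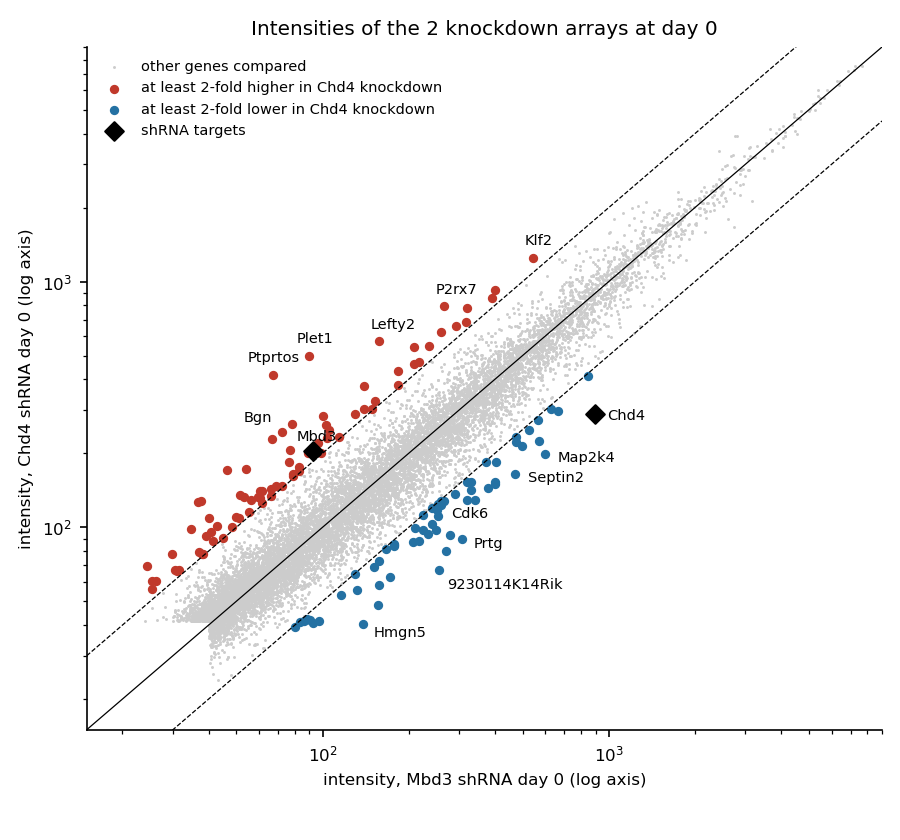
Intensity of each of the 13314 compared genes in the Chd4-knockdown array (vertical, log axis) against the Mbd3-knockdown array (horizontal, log axis) at day 0; the solid line marks equal intensities and the dashed lines 2-fold. Red points are the 77 genes past 2-fold and higher, and blue points the 61 at least 2-fold lower in the Chd4 knockdown, and black diamonds are the shRNA targets.

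The largest difference belonged to the long noncoding RNA Ptprtos. It read 417 in the Chd4 knockdown, against 67.1 in the Mbd3 knockdown and 74.1 in control, a 6.22-fold difference between the knockdowns. Plet1, a surface protein of trophoblast and other epithelial progenitors, had 499 in the Chd4 knockdown, 89.9 in the Mbd3 knockdown and 231 in control (5.55-fold). For both genes the control lay between the knockdowns, and for Ptprtos the Mbd3 knockdown lay beside control. Lefty2, a secreted inhibitor of Nodal signaling, had 573 in the Chd4 knockdown, 157 in the Mbd3 knockdown and 205 in control (3.65-fold). Bgn, which encodes the matrix proteoglycan biglycan, read 244 in the Chd4 knockdown, 72.0 in the Mbd3 knockdown and 77.0 in control (3.39-fold). A second probe set of Bgn differed by 0.30 on the log2 scale.

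The other genes among the 15 highest ranged from 3.67-fold (4930591A17Rik) to 2.55-fold (Cd80, a costimulatory ligand of T cells). They included Jade2, a subunit of a histone acetyltransferase complex (3.43-fold), Usp26, a deubiquitinase of the testis (3.34-fold), and Slc1a1, a glutamate transporter (3.21-fold). The ATP-gated channel gene P2rx7 had 792 in the Chd4 knockdown, 265 in the Mbd3 knockdown and 212 in control (2.98-fold). Kdelr3, a retrieval receptor for proteins of the endoplasmic reticulum, was 2.83-fold higher, and the arginine transporter gene Slc7a1 2.69-fold. Gm5662 (2.67-fold), the RNA export factor gene Nxf3 (2.62-fold) and the germ cell transcription factor gene Sohlh2 (2.60-fold) completed the group. The second probe set of Gm5662 differed by -0.06.

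Among genes lower in the Chd4 knockdown, the long noncoding RNA 9230114K14Rik was first. It read 67.0 in the Chd4 knockdown, 255 in the Mbd3 knockdown and 153 in control (3.81-fold). Prtg, an immunoglobulin-domain receptor of the early embryo, had 89.3 in the Chd4 knockdown, 306 in the Mbd3 knockdown and 205 in control (3.43-fold). In both genes control lay between the knockdowns, as it did in 13 of the 15 lowest genes and in 11 of the 15 highest. Ttll6, a tubulin polyglutamylase, was 3.38-fold lower, and Fermt1, an activator of integrins, 3.24-fold. Map2k4, a kinase that activates JNK, had 199 in the Chd4 knockdown, 598 in the Mbd3 knockdown and 370 in control (3.001-fold). Septin2, a cytoskeletal GTPase, read 165 in the Chd4 knockdown, against 471 in the Mbd3 knockdown and 537 in control (2.85-fold).

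The remaining genes of the 15 lowest lay between 2.99-fold and 2.53-fold. They were Slc18b1, a vesicular polyamine transporter, the iron exporter gene Slc40a1, the anoctamin gene Ano3, the GTPase-activating protein gene Arhgap42, the major urinary protein gene Mup6, the lipid phosphatase gene Plpp3, the carboxypeptidase inhibitor gene Lxn, the nucleoside diphosphate kinase gene Nme4, and 1700007K13Rik. Nme4 and Septin2 were the 2 of the 15 whose control intensity was above both knockdowns. The plot of the 15 highest and 15 lowest genes sets each knockdown beside control.

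**Figure D2:**
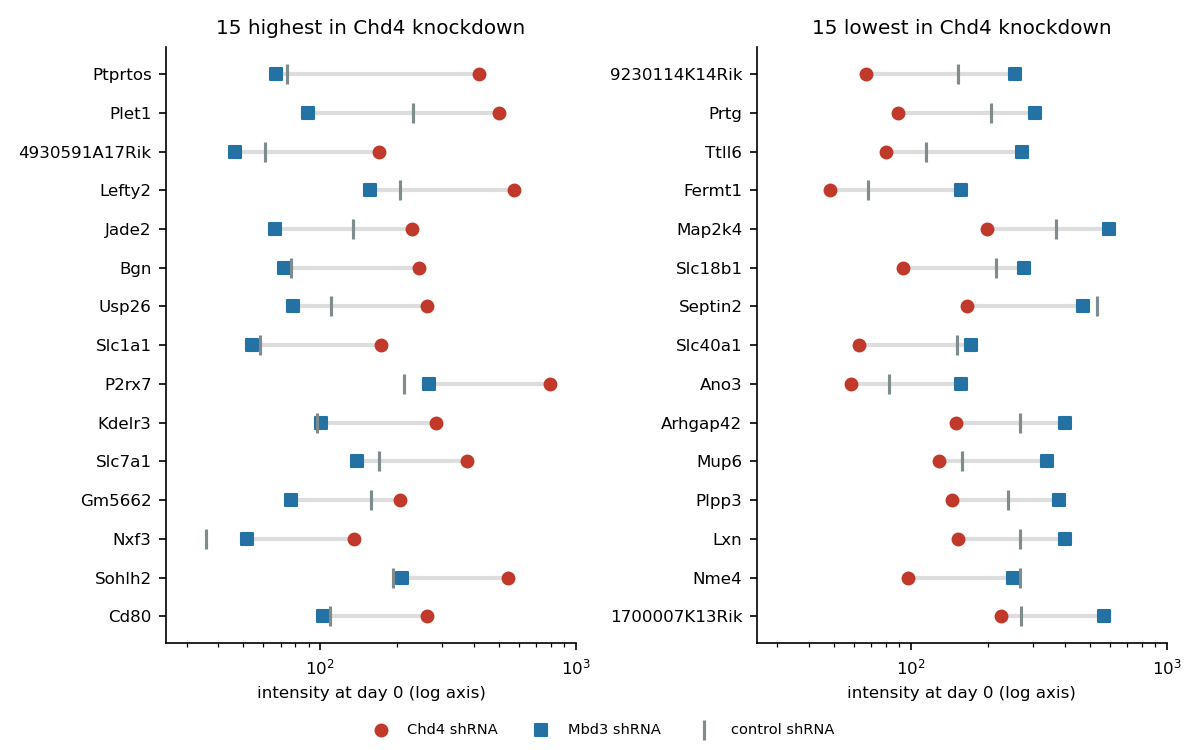
Intensity at day 0 (log axis) of the 15 genes with the highest (left) and the 15 with the lowest (right) difference among genes at or above 41.4 in both knockdowns. Red circles are the Chd4-knockdown array, blue squares the Mbd3-knockdown array and grey ticks the control array, 1 array each. The grey tick lies between circle and square in most rows on both sides, and beside the square in many rows on the left.

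In some genes the dimmer knockdown lay under 41.4, so that only a bound can be given. Kctd12 was at least 3.08-fold higher in the Chd4 knockdown, the collagen receptor gene Ddr2 at least 3.05-fold, the tuft cell transcription factor gene Pou2f3 at least 2.64-fold and Rassf4 at least 2.38-fold. A second probe set of Kctd12 read 52.98 in the Chd4 knockdown, against 40.99 in the Mbd3 knockdown, a difference of 0.37. Hmgn5, a nucleosome-binding protein that loosens chromatin, was at least 3.35-fold lower, with 40.4 in the Chd4 knockdown, 139 in the Mbd3 knockdown and 110 in control. The microRNA gene Mir466b-3 was at least 2.35-fold, Cfap300 at least 2.24-fold and Shisa4 at least 2.02-fold lower. Genes close to the threshold show how finely it divides them: B2m, the light chain of class I major histocompatibility proteins, differed by 0.99996 and Chd3 by 0.998, just outside, and Scn3b by -1.002, just inside. Of the genes past 2-fold 11 had more than 1 probe set, and in 9 of them every other probe set differed by less than 1.5-fold. For Pdk1, Trim7, Tenm4, Emp1, Ndrg1, Acss1 and Gm5662 the other probe set was under 41.4 in both knockdowns. Such a dim probe set can show little of a difference. For Bgn and Kctd12 the other probe set was above 41.4 in the Chd4 knockdown.

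The control array at day 0 showed which knockdown stood away from control in these genes. Without the target, of the 77 higher genes past 2-fold, the Chd4-knockdown array was farther from control in 59 (76.6%) and the Mbd3-knockdown array in 18. In 41 of them the Chd4 knockdown was at least 2-fold above control, whereas in 7 the Mbd3 knockdown was at least 2-fold below it. The median log2 difference from control was 1.06 in the Chd4 knockdown, against -0.24 in the Mbd3 knockdown. Some of the 77 genes were under 41.4 in the Mbd3 knockdown and entered the comparison through the Chd4-knockdown array. Gm364, for example, read 55.9 in the Chd4 knockdown, 25.3 in the Mbd3 knockdown and 29.8 in control. Where control is that dim, a 2-fold fall below it cannot be read, so the low end of the scale sets part of these counts. Of the 61 lower genes past 2-fold, the Chd4 knockdown was farther from control in 37 (60.7%), and 16 genes were at least 2-fold below control in it. In the Mbd3 knockdown 11 of the 61 were at least 2-fold above control. Medians of these 61 genes were -0.73 in the Chd4 knockdown, against 0.51 in the Mbd3 knockdown. Over all genes compared the medians were -0.001 in the Chd4 knockdown, against 0.004 in the Mbd3 knockdown. The same counts against control over all genes compared are not given here, so the counts above have no background share.

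The knockdowns lay on opposite sides of control in 55 of the 77 higher genes and in 46 of the 61 lower genes. Fdft1, which makes squalene in cholesterol synthesis, was an example with the Mbd3 knockdown farther away: it read 922 in the Chd4 knockdown, 400 in the Mbd3 knockdown and 788 in control. Pold2, a subunit of DNA polymerase delta, had 153 in the Chd4 knockdown, 318 in the Mbd3 knockdown and 498 in control, so that both knockdowns were below control. Both differences from control share the control array, and the genes were chosen by the difference between the knockdowns, so these counts describe the arrays and test nothing.

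Gene lists were then set side by side. Of 43 lists, 7 had a median log2 difference of 0.2 or more, 3 had a median of -0.2 or less and 33 lay between, against a median of -0.003 over all genes compared. The 7 were the integrated stress response, germline genes, neuron genes, P2X channels, primitive and definitive endoderm, cholesterol synthesis and NuRD subunits. The 3 were WNT response genes, p53 target genes and genes of the 2-cell-like state. All the lists and their members were chosen with earlier results of these data known, so their medians describe these arrays and test nothing. Some lists were written around genes already known to differ in these arrays, such as the septins, the P2X channels and DNA polymerase delta, and are no evidence of a direction.

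**Figure D3:**
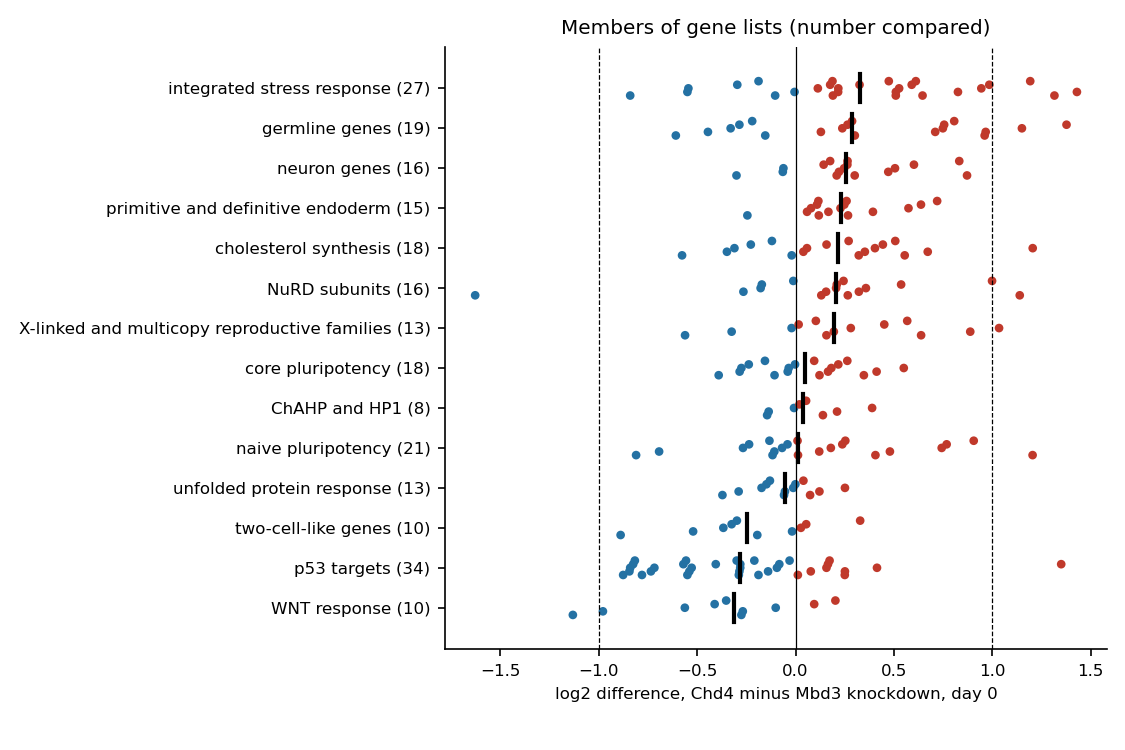
Log2 difference between the Chd4 and the Mbd3 knockdown at day 0 (horizontal axis) for the members of 14 gene lists, with the number of genes compared in brackets; each point is a gene, red above 0 and blue below, the black bar is the list's median, and dashed lines mark 2-fold. Integrated stress response genes lie mostly to the right (median 0.32) and p53 targets mostly to the left (median -0.28).

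Genes of the integrated stress response were higher in the Chd4 knockdown. This response slows protein synthesis and, through the transcription factor ATF4, turns on genes for amino acid uptake and synthesis. Of 27 genes compared 20 were higher and 7 lower, with a median of 0.32; over all genes compared 49.6% were higher. The median difference from control was 0.36 in the Chd4 knockdown, against -0.02 in the Mbd3 knockdown. Atf4 itself had 370 in the Chd4 knockdown, 192 in the Mbd3 knockdown and 233 in control, a difference of 0.94. Past 2-fold were 3 members: Slc7a1, Nupr1, a stress-induced chromatin protein, and Herpud1, which acts in the disposal of misfolded proteins.

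Nupr1 read 132 in the Chd4 knockdown, 53.1 in the Mbd3 knockdown and 50.8 in control (2.49-fold). Herpud1 read 220 in the Chd4 knockdown, 96.1 in the Mbd3 knockdown and 118 in control (2.29-fold). Mthfd2, a mitochondrial enzyme of folate metabolism, differed by 0.98, and Chac1, which degrades glutathione, by 0.83. Asns, which makes asparagine, had 1042 in the Chd4 knockdown, 732 in the Mbd3 knockdown and 678 in control. The largest differences in the other direction were those of Ddit4 (-0.84), Sesn2 (-0.55) and Slc7a3 (-0.54), of which Ddit4 and Sesn2 are also p53 targets. Chaperones of the unfolded protein response did not share the direction: 4 of 13 were higher and 9 lower, with a median of -0.05.

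Promoters of the integrated stress response genes were searched because ATF4 acts through a known composite element. RefSeq's promoter table (build GRCm38.p6) held 300 bases for 24 of the 27 genes, 250 before and 50 after the start site. The search letters were TGATGNAAN on either strand, the pattern of the C/EBP-ATF response element, and no other motif was searched. It stood in 3.95% of 32851 promoters and in 4.50% of 27025 genes. Among the 24 genes 7 held it, namely Asns, Chac1, Herpud1, Nupr1, Pck2, Trib3 and Vldlr. All 7 were higher in the Chd4 knockdown, by 0.22 to 1.32, and of the 17 without it 11 were higher. The list was written from known genes of a response that acts through ATF4, so a share above that of all genes can follow from its making. A match is a description of the letters in this window and shows no binding. The part of ATF4 in the differences was not tested.

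Of these promoters 4 are shown because Nupr1 and Herpud1 passed 2-fold, Chac1 came close to it and Asns is a classical ATF4 target. The search letters are in capitals, read on the gene's strand, and they run antisense except in Asns. The regions are chr7:126625421-126625720 (minus strand) for Nupr1, chr8:94386179-94386478 (plus strand) for Herpud1, chr2:119350992-119351291 (plus strand) for Chac1 and chr6:7693160-7693459 (minus strand) for Asns, all in GRCm38.p6. The first matched base lay at -111 in Nupr1, -113 in Herpud1, -194 in Chac1 and -23 in Asns, counted from the start site as 0.
Nupr1: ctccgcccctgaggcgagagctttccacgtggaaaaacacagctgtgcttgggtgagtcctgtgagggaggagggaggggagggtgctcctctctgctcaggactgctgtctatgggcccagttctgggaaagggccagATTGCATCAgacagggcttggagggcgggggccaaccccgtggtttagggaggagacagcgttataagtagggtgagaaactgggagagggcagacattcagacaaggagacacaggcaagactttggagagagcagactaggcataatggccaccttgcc
Herpud1: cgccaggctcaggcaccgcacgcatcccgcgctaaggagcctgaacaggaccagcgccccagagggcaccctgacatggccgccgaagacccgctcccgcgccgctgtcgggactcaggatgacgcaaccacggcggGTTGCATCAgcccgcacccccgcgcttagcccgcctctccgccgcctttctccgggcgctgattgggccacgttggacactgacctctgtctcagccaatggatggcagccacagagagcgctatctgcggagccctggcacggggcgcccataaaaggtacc
Chac1: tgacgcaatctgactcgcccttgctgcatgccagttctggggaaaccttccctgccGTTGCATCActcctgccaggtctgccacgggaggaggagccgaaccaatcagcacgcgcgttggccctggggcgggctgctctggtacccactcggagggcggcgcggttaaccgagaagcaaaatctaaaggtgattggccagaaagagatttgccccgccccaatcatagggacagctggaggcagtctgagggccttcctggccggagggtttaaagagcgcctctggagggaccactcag
Asns: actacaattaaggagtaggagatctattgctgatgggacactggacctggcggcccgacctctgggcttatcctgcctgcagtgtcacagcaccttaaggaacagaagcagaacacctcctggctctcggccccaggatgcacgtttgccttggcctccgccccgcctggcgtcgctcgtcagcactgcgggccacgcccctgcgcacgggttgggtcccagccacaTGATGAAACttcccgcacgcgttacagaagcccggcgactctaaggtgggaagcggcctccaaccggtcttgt

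Targets of the tumor suppressor p53, a transcription factor that answers DNA damage and other stress, went the other way. Of 34 genes compared 9 were higher and 25 lower, with a median of -0.28; over all genes compared 50.3% were lower. Here the Mbd3 knockdown stood apart from control, with a median difference of 0.28, while the Chd4 knockdown was at -0.03. Perp, a junction protein of p53-driven apoptosis, read 227 in the Chd4 knockdown, 417 in the Mbd3 knockdown and 275 in control. Trp53inp1 read 846 in the Chd4 knockdown, 1499 in the Mbd3 knockdown and 824 in control. Mdm2, the gene of a ubiquitin ligase for p53, had 786 in the Chd4 knockdown, 1156 in the Mbd3 knockdown and 798 in control.

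The 4 lowest differences were those of Perp (-0.88), Ptprv (-0.84), Ddit4 (-0.84) and Trp53inp1 (-0.83), followed by Apaf1, the scaffold of the apoptosome, at -0.82. None of the 25 reached 2-fold. Cdkn1a, the cell cycle inhibitor p21, was not among them: it had 690 in the Chd4 knockdown, 612 in the Mbd3 knockdown and 404 in control, a difference of 0.17. Cd80 was the single member past 2-fold and went in the opposite direction, with 262 in the Chd4 knockdown, 103 in the Mbd3 knockdown and 109 in control. At day 4 the list's median was 0.05, with 19 genes higher and 15 lower.

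**Figure D4:**
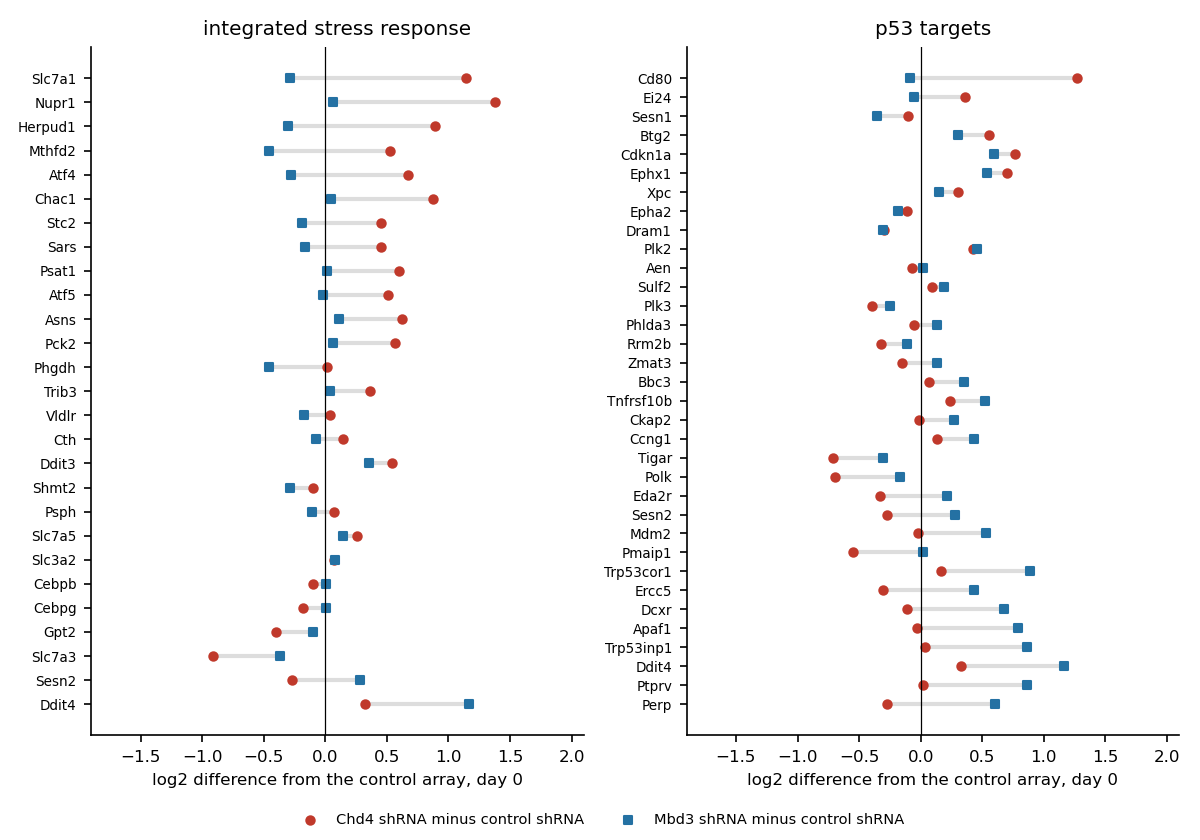
Log2 difference from the control array at day 0 for each compared gene of the integrated stress response list (left) and the p53 target list (right), with the Chd4 knockdown as red circles and the Mbd3 knockdown as blue squares; genes are ordered by the difference between the knockdowns. On the left most circles lie to the right of their squares, with medians of 0.36 and -0.02, and on the right most squares lie to the right of their circles, with medians of -0.03 for circles and 0.28 for squares. Both differences share the control array.

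Other subunits of NuRD differed less than the targets. Of 16 genes compared, targets included, 11 were higher (68.75%, against 49.6% of all genes compared) and 5 lower, with a median of 0.21. Chd3, a remodeler that can take the place of CHD4 in the complex, had 236 in the Chd4 knockdown, 118 in the Mbd3 knockdown and 94.3 in control, a difference of 0.998. Rbbp7, a histone-binding subunit, had 1701 in the Chd4 knockdown, 1173 in the Mbd3 knockdown and 1576 in control (0.54). Mta3, Mta2 and Mta1, the subunits that hold the deacetylases, differed by -0.27, -0.18 and -0.17. Hdac1 read 1404 in the Chd4 knockdown, against 1415 in the Mbd3 knockdown. Among 8 genes of ChAHP and the HP1 family the median was 0.04, and Adnp, the DNA-binding partner of CHD4 there, differed by 0.05.

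Pluripotency genes as a group did not separate the knockdowns. The median was 0.05 for 18 core genes (9 higher, 9 lower) and 0.01 for 21 naive genes (12 higher, 9 lower). Within the naive list single genes were apart. Klf2, a transcription factor of the naive state, had 1249 in the Chd4 knockdown, 542 in the Mbd3 knockdown and 761 in control (2.30-fold). Fgf4, the growth factor that primes stem cells for differentiation, had 417 in the Chd4 knockdown, 223 in the Mbd3 knockdown and 436 in control (0.91). For Fgf4 the Chd4 knockdown lay beside control, and likewise for Nr0b1 (0.77), with 1903, 1118 and 1812 in the Chd4 knockdown, the Mbd3 knockdown and control. Sox15 (-0.81) and Manba (-0.69) were the lowest members.

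Among signals of the early embryo, both Lefty genes, which are targets and inhibitors of Nodal, were higher. Lefty2 differed by 1.87 and Lefty1 by 0.97, Lefty1 with 472 in the Chd4 knockdown, 240 in the Mbd3 knockdown and 267 in control. Nodal itself differed by -0.07, and the list's median over 7 genes was -0.07. Of 10 WNT response genes 2 were higher and 8 lower (80%, against 50.3% of all genes compared), with a median of -0.31. Of the 8, 2 were under 41.4 in the Chd4 knockdown, and the median with these set to 41.4 was -0.27. Lef1, a DNA-binding partner of beta-catenin, had 69.1 in the Chd4 knockdown, 152 in the Mbd3 knockdown and 170 in control (2.19-fold lower). Wnt3, a WNT ligand, differed by -0.98 and Cdx1, a caudal homeobox gene, by -0.56; both were dim, with 43.7 and 48.2 in the Chd4 knockdown against 86.1 and 71.1 in the Mbd3 knockdown.

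Cell cycle genes of the G1 phase gave 9 higher and 10 lower of 19, with a median of -0.01. Cdk6, a kinase that pairs with D cyclins, was the single member past 2-fold. It had 123 in the Chd4 knockdown, 259 in the Mbd3 knockdown and 343 in control (2.11-fold lower). Ccnd1 and Ccnd2, which encode cyclins D1 and D2, differed by -0.51 and -0.33 between the knockdowns. Both knockdowns were far below control for Ccnd2, with 48.4 in the Chd4 knockdown, 60.6 in the Mbd3 knockdown and 306 in control. Cdkn1b, which encodes the inhibitor p27, had the largest difference in the other direction, 0.71.

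Of 19 germline genes 13 were higher in the Chd4 knockdown (68.4%, against 49.6% of all genes compared), with a median of 0.29. Of these 13, 4 were under 41.4 in the Mbd3 knockdown and were compared only through the Chd4-knockdown array, and of the 15 genes at or above 41.4 in both 9 were higher. Sohlh2 had 543 in the Chd4 knockdown, 209 in the Mbd3 knockdown and 192 in control. Dazl, a translation regulator in germ cells, had 132 in the Chd4 knockdown, 59.6 in the Mbd3 knockdown and 113 in control (2.22-fold). Tex19.1, a gene of transposon defense, differed by 0.96, and Taf7l was at least 1.31-fold higher. Nanos3 had the lowest difference, -0.61. Among 13 genes of X-linked and multicopy reproductive families 10 were higher (76.9%, against the same 49.6%), with a median of 0.19. Of these 10, 5 were under 41.4 in the Mbd3 knockdown, and of the 7 genes at or above it in both knockdowns 5 were higher. Fthl17b, a ferritin-like gene of this group, was at least 1.88-fold higher, with 77.7 in the Chd4 knockdown, 37.9 in the Mbd3 knockdown and 47.8 in control. Members of such families share sequence, and their probe sets may read near-identical copies.

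Several lineage lists had medians of this size with few large members. Of 15 primitive and definitive endoderm genes 14 were higher (93.3%, against 49.6% of all genes compared), with a median of 0.23. However, 4 of the 14 were under 41.4 in the Mbd3 knockdown and were compared only through the Chd4-knockdown array. Of the 11 genes at or above 41.4 in both, 10 were higher, and with intensities under 41.4 set to it the median of the 15 was 0.13. The receptor gene Pdgfra was at least 1.41-fold higher, Gata6 at least 1.10-fold and Sox7 at least 1.04-fold. Lamc1, a laminin chain of basement membranes, differed by 0.39. The summed intensity of 9 primitive endoderm markers was 627 in the Chd4 knockdown, 516 in the Mbd3 knockdown and 575 in control, with 8, 5 and 8 of the 9 at or above 41.4. The part of such cells in the result was not tested.

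Of 16 neuron genes 13 were higher (81.25%, against 49.6% of all genes compared), with a median of 0.25. Of these 13, 5 were under 41.4 in the Mbd3 knockdown and were compared only through the Chd4-knockdown array. With the dim intensities set to 41.4 the median was 0.21, and of the 11 genes at or above it in both knockdowns 8 were higher. Stmn2, a regulator of microtubules, had 1392 in the Chd4 knockdown, 761 in the Mbd3 knockdown and 1517 in control (0.87), and Elavl3, a neuronal RNA-binding protein, differed by 0.83. The sum over 6 neuron markers was 742 in the Chd4 knockdown, 536 in the Mbd3 knockdown and 766 in control. Dcx, Nhlh1 and Neurod4 were under 41.4 in all 3 arrays, and the part of neurons in the result was not tested.

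Bgn stands in the fibroblast and matrix list, where 10 of 16 genes were higher (62.5%, against 49.6% of all genes compared), with a median of 0.11. Thy1, a surface protein of fibroblasts and other cells, differed by 0.95, and Vcan, a large proteoglycan, by -1.10, with 223 in the Chd4 knockdown, 475 in the Mbd3 knockdown and 201 in control. The sum over 8 fibroblast markers was 445 in the Chd4 knockdown, 336 in the Mbd3 knockdown and 367 in control. Of these markers Dcn, Lum, Postn and Col3a1 were under 41.4 in all 3 arrays. Plet1 stands in the trophectoderm list, whose median was -0.15 with 7 of 17 genes higher. The sum over 9 trophectoderm markers was 755 in the Chd4 knockdown, 901 in the Mbd3 knockdown and 880 in control. The part of fibroblasts or trophectoderm in the Bgn and Plet1 results was not tested.

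Cholesterol synthesis genes were higher in 12 of 18 (66.7%, against 49.6% of all genes compared), with a median of 0.21. Besides Fdft1 (2.31-fold), Cyp51, a sterol demethylase, differed by 0.67 and Sc5d, a desaturase of a late step, by 0.55, while Ebp, a sterol isomerase, differed by -0.58. The median difference from control was -0.01 in the Chd4 knockdown, against -0.26 in the Mbd3 knockdown. Of 21 genes of the 2-cell-like state that were measured 10 were compared, and 7 of these were lower (70%, against 50.3% of all genes compared). Their median was -0.25, or -0.18 with intensities under 41.4 set to it. Of the 9 at or above 41.4 in both knockdowns 6 were lower. Zscan4a, Zscan4b, Zscan4c, Zscan4d and Zscan4e are among the 10, and their probe sets may read near-identical copies. The medians of the 10 against control were -0.84 in the Chd4 knockdown, against -0.66 in the Mbd3 knockdown. Zscan4e, a marker of that state, had 82.5 in the Chd4 knockdown, 118 in the Mbd3 knockdown and 284 in control. Among metabolism and hypoxia genes 2 members were past 2-fold: Pdk1, which holds back entry of pyruvate into mitochondria, was 2.07-fold lower, and Ndrg1 was 2.22-fold higher, and in each the second probe set was dim and differed by 0.00 for Pdk1 and by 0.17 for Ndrg1.

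The same difference at day 4 comes from 2 other arrays, which follow another condition and are no replicates. At least 2-fold higher at day 4 were 123 of the 13329 genes compared there (0.923%), and 24 were lower (0.18%). Of the 77 higher genes of day 0, 65 were higher at day 4 (84.4%), against 51.2% of all genes compared at day 0. At least 2-fold higher at both days were 22 of the 77 (28.6%), against 0.683% of all genes. Of the 61 lower genes of day 0, 45 were lower at day 4 (73.8%, against 48.8%), and 1 of them, Hmgn5, was at least 2-fold lower at both days (0.15% of all genes). Medians lay closer to 0 on the lower side: at day 4 the 77 genes had 0.33 and the 61 genes -0.18, against 1.19 and -1.13 at day 0. The genes were chosen by the 2-fold cut on the day 0 values, so their day 0 medians are past 2-fold by choice. Smaller medians at day 4 are expected from that choice alone and do not show that the differences faded. Across the 13314 genes the differences at day 4 and at day 0 had a Pearson correlation of 0.27 and a Spearman rank correlation of 0.19; these are genes, not independent replicates, and each pair of arrays shares its virus.

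Ptprtos was highest at both days, with 718 in the Chd4 knockdown, 85.2 in the Mbd3 knockdown and 53.6 in control at day 4. Bgn had a similar pattern, with 357 in the Chd4 knockdown, 82.2 in the Mbd3 knockdown and 78.1 in control at day 4, a log2 difference of 2.12. Usp26 differed by 1.82 at day 4, and Slc1a1 was at least 3.48-fold higher. Ddr2 was at least 4.62-fold higher, with 192 in the Chd4 knockdown, against 32.5 in the Mbd3 knockdown. In 16 of the 77 genes the difference was larger at day 4 than at day 0. Among them was Dazl, which read 1104 in the Chd4 knockdown, 324 in the Mbd3 knockdown and 49.5 in control at day 4, and Fthl17b, which read 266 in the Chd4 knockdown, 46.2 in the Mbd3 knockdown and 35.2 in control.

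The other genes with the largest differences at both days were 4930591A17Rik, Pou2f3, Nxf3, Slc5a4b and Gm5662, with day 4 differences between 1.22 and 1.74. On the lower side, Hmgn5 read 73.4 in the Chd4 knockdown, 162 in the Mbd3 knockdown and 166 in control at day 4. Cpsf4l (-0.87), Cdk6 (-0.81), AW554918 (-0.80) and Prelid3a (-0.76) came next, and Mpzl2, Slc18b1, Vcan, Ano3 and Lxn differed by -0.65 to -0.53. The germline list had a median of 0.54 at day 4 and the list of X-linked and multicopy families 0.55, against 0.29 and 0.19 at day 0, while the integrated stress response list had 0.17.

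Lefty2 had 274 in the Chd4 knockdown, against 247 in the Mbd3 knockdown at day 4. In control cells Lefty2 read 81.6 at day 4, against 205 at day 0. The 77 genes held 17 that were at least 2-fold lower in control at day 4 than at day 0 (22.1%), against 4.87% of all genes compared, and 10 that were higher (13.0%, against 6.90%). The 61 genes held 11 lower (18.0%) and 5 higher (8.20%). The plot of the differences at both days shows the higher genes spread over a wide range at day 4 and the lower genes gathered near 0.

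**Figure D5:**
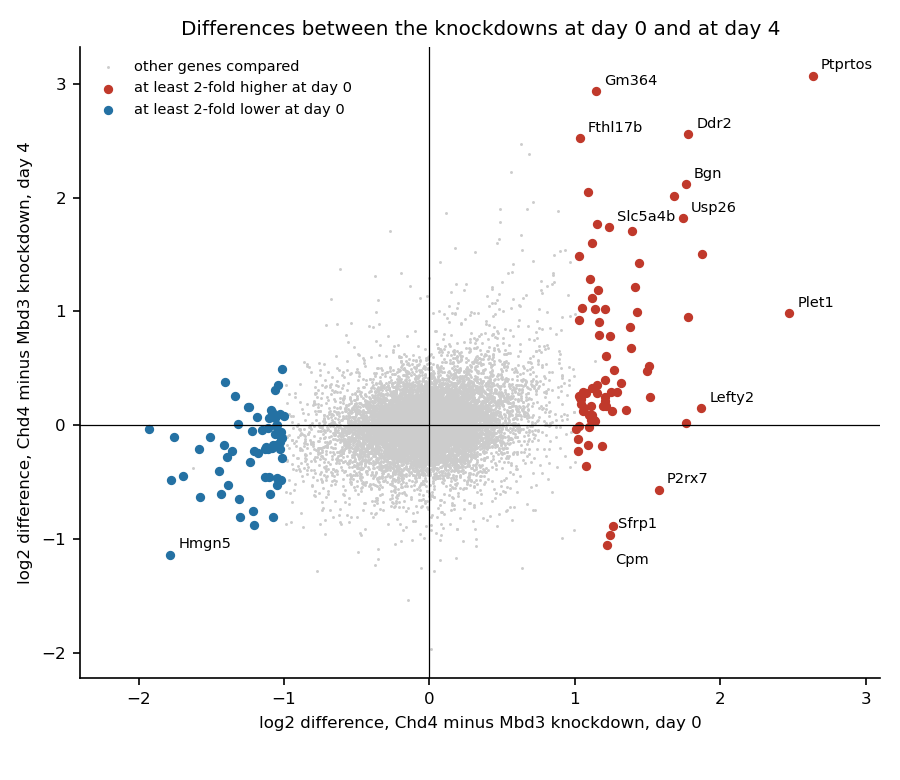
Log2 difference between the Chd4 and the Mbd3 knockdown at day 4 (vertical) against day 0 (horizontal) for the 13314 genes compared at day 0, with the 77 higher genes past 2-fold at day 0 in red and the 61 at least 2-fold lower in blue. Of the red points 65 lie above 0 on the vertical axis and 22 above 1; of the blue points 45 lie below 0 and 1, Hmgn5, below -1.

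The single test the design allows was limma on all 6 arrays, with shRNA and day as additive terms. Its error is the departure of the arrays from additive effects, with 2 residual degrees of freedom, so an effect that differs between the days counts as error. It called 0 of 13037 genes (0%) at a Benjamini-Hochberg adjusted p under 0.05, with 362 at an unadjusted p under 0.05 (2.78%) and a smallest adjusted p of 0.999989. The fit of the 4 knockdown arrays alone, with 1 residual degree of freedom, called 17 genes (0.13%), 16 higher and 1 lower. At an unadjusted p under 0.05 it had 1323 genes (10.1%). The error of the 6-array fit also holds departures of the control arrays. All 17 genes, which the 4-array fit had chosen, had a smaller SE with 4 arrays than with 6. The SEs were far apart for Dazl (0.18 against 1.07) and nearly equal for Atp1b2 (0.138 against 0.140). The prior degrees of freedom, which limma draws from the spread over all genes, also differed, with 6.74 for 4 arrays against 2.70 for 6. The 17 calls therefore cannot be credited to the control arrays alone. In that fit limma gave Ptprtos an adjusted p of 0.00177 with an estimate of 2.86 (SE 0.16), and Usp26, Bgn and Slc1a1 an adjusted p of 0.00772 each. Ddr2, 4930591A17Rik, Nxf3, Pou2f3, Gm5662 and Slc5a4b were the others of the first 10 higher genes, and Hmgn5, with an adjusted p of 0.0389 and an estimate of -1.46 (SE 0.18), was the 1 lower gene. The p-values measure the spread between the days of these arrays, not between cultures.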

How the data were processed

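Total RNA of 6 groups with 1 array each was hybridized to Mouse Gene 2.0 ST arrays and, per the series design text, analysed in GeneSpring GX 12.6.1. The authors deposited 1 linear intensity per probe set and array (17.4 to 7980, array medians 39.6 to 41.4). Per the submitters' processing notes RMA was used, a method that corrects background, equalizes arrays by quantiles and summarizes probes; no version is named. Each array's lowest value was above 17, as an added constant of 16 would give, though none is stated, and it would shrink the folds of dim genes. Of 34351 probe sets, 23521 had 1 gene symbol, 1814 several and 9016 none. Symbols were updated through RefSeq (GRCm38.p6), which held 23328 of the gene IDs. Of the 22180 genes, 1082 had more than 1 probe set, and the 1 with the highest mean over the 6 arrays was used. A genome build for the probe sets was not stated.

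Log2 intensities were compared without further scaling where the brighter array reached its median. Named genes were the targets, the 15 highest and 15 lowest, 4 bounds in each direction, list members past 2-fold or with the largest differences in a list, and the 10 in each direction with the largest difference at both days. Members named for their role (Atf4, Asns, Apaf1, Mdm2, Cdkn1a, Mta1, Mta2, Hdac1, Adnp, Nodal, Ccnd1, Ccnd2, Zscan4e), genes at the threshold and marker genes were chosen after their values were seen. The members and lists were chosen with earlier results of these data known. Of 759 list symbols 680 matched exactly, 5 by an older name, and the other 74 were not analysed here. limma 3.58.1 in R 4.3.3 and Python 3.11.15 with pandas 2.3.3 were used. The limma fit was also run on simulated arrays with planted differences and no day effect. The outcome of that run is not reported here, so it gives no measure of power. Alternatives covered a subtracted constant, quantile normalization, centring, filters, a floor, averaged probe sets and a 1.5-fold threshold. Depth does not apply to arrays, and their number limits the precision.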

Additional observations from a re-analysis of the deposited data

Results flagged for a closer look

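Of the 77 genes at least 2-fold higher in the Chd4 knockdown at day 0, 12 were lower at day 4, and 4 of them by at least 0.5 on the log2 scale, a difference between the days that was not tested. Cpm, a membrane carboxypeptidase, differed by -1.05 on the log2 scale at day 4, with 50.3 in the Chd4 knockdown, against 104 in the Mbd3 knockdown. Sfrp1, a secreted inhibitor of WNT signaling, differed by -0.96 at day 4, with 227 in the Chd4 knockdown, 443 in the Mbd3 knockdown and 2744 in control, whereas at day 0 it read 434 in the Chd4 knockdown, 184 in the Mbd3 knockdown and 383 in control. The small nucleolar RNA gene Snord13 differed by -0.89, with 116 in the Chd4 knockdown, against 214 in the Mbd3 knockdown at day 4. P2rx7 differed by -0.57, with 157 in the Chd4 knockdown, against 233 in the Mbd3 knockdown at day 4. These genes were picked for the change of sign among 138.

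Probe sets that carry no gene symbol or several were not used above. Of 3952 such probe sets that reached the array median in the brighter knockdown, 39 were at least 2-fold apart at day 0 (0.987%), 15 higher and 24 lower in the Chd4 knockdown, close to the 1.05% of the genes compared.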

How the results depend on the processing

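With 1 array per group no spread between cultures can be given, dim genes rest on intensities near the array median, and no detection call was used. With 16 subtracted before log2, 293 genes in place of 138 were past 2-fold, 156 higher and 137 lower, among them all 138; at 1.5-fold the counts were 946, 435 and 511. These counts stayed within 1.5 times of 138, 77 and 61 under quantile normalization, centring, no filter, a filter at the 75th percentile, a floor at the highest array median and averaged probe sets (113 to 140 genes). All 58 named genes past 2-fold kept their direction with the constant subtracted, under quantile normalization, with the floor and with averaged probe sets; Pold2 was under 2-fold after quantile normalization, Fthl17b with the floor, and Gm5662, Ndrg1 and Pdk1 with averaged probe sets. Of the 10 lists with a median of at least 0.2 in size, 8 were still there with the floor, 9 with averaged probe sets and 10 under the other 2 alternatives. The share with the same direction at day 4 ranged from 75.9% to 84.4% for higher and from 69.1% to 75% for lower genes, and the Chd4 array was farther from control in 73.7% of higher and 63.5% of lower genes with 16 subtracted. limma called 17 genes in the 4 knockdown arrays, against 0 in all 6, and 0 with 16 subtracted, with a variance trend and without a filter (363, 349 and 775 at an unadjusted p under 0.05). No paired analysis was possible because each group holds 1 array and the labels give no replicate numbers to pair by, although the limma fits compare the knockdowns within days through the day term.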

Other observations

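A cluster of microRNA genes inside Sfmbt2, an imprinted Polycomb-related gene of the trophoblast lineage, was lower in the Chd4 knockdown than in the Mbd3 knockdown. Sfmbt2 itself read 521 in the Chd4 knockdown, 946 in the Mbd3 knockdown and 570 in control, a log2 difference of -0.86. RefSeq places 72 microRNA genes within it, of which 22 were measured here and 16 compared. All 16 were lower, against 50.3% of all genes compared, with a median of -0.77 and a range of -1.23 to -0.14. Past 2-fold were 2 of them, Mir466b-3 and Mir466b-2. Mir466b-3, Mir466n, Mir669m-1, Mir669c and Mir297a-4 lay under the median of the Chd4-knockdown array. They were compared only through the Mbd3-knockdown array, which favors lower differences. Without this filter all 22 measured genes were lower, but those it had left out were under 41.4 in both knockdowns. Mir669j read 486 in the Chd4 knockdown, 914 in the Mbd3 knockdown and 454 in control. The median difference from control was 0.21 in the Chd4 knockdown, against 0.97 in the Mbd3 knockdown. At day 4 the median difference between the knockdowns was -0.30. This set was chosen after its values were seen. Its members include near-identical copies within microRNA families and share a host transcript, so the probe sets may read the same RNA and are not independent. The array reads precursor and host transcripts, not mature microRNAs.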
